A study of Mus musculus with 11 samples.

Results

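The 9 genes described here write, keep and remove methyl groups on cytosine, or make a substrate for their removal, and were followed in germinal center B cells sorted from mouse spleen. They are Dnmt1, Dnmt3a, Dnmt3b, Uhrf1, Tet1, Tet2, Tet3, Idh1 and Idh2, and were taken by symbol from a table of 48593 genes. All 9 were found, and all 9 were among the 16515 genes tested, those with a mean of at least 10 normalized reads over the 11 libraries. Each library came from sorted B220+ PNA+ CD95+ spleen cells, taken 12 days after mice were given sheep red blood cells. The 5 WT libraries were from mice of genotype Crebbp+/+, Ep300+/+ and Cg1cre/+. The 3 Crebbp-KO libraries (labelled CBP-KO) were Crebbp fl/fl, Ep300+/+ and Cg1cre/+, and the 3 Ep300-KO libraries (labelled p300-KO) were Crebbp+/+, Ep300 fl/fl and Cg1cre/+. All groups thus carried 1 copy of Cg1cre, a Cre driven from the gamma 1 constant region locus, which acts in B cells activated by antigen. The labels give the WT animals as littermates of crosses that carried Crebbp alleles and name no Ep300 cross for them, so cross and loss of Ep300 cannot be told apart. The labels used here give no age, sex or batch.

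DNA methylation is copied after replication by DNMT1, which UHRF1 brings to half-methylated sites, and is placed on unmarked DNA by DNMT3A and DNMT3B. TET1, TET2 and TET3 oxidize methylcytosine and need alpha-ketoglutarate, which IDH1 makes in the cytosol and IDH2 in mitochondria. Germinal center B cells divide quickly and lose methylation at many sites while they do so, and DNMT1 is known to be needed for a full response in mice. CREBBP and EP300 are paralogous lysine acetyltransferases that act at enhancers and promoters.

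Upstream sequence is given for 1 annotated start each of Dnmt3a, Dnmt3b, Tet1 and Idh1, the 4 genes that passed the test in Crebbp-KO. Dnmt3a and Idh1 have other annotated starts whose windows are not printed. The Dnmt3a and Tet1 windows lie inside the span that GENCODE M21 gives these genes, so they do not mark where that span begins. Sequences are from RefSeq, build GRCm38.p6, 5′ to 3′ on the strand of the gene. They run toward the start site within the 250 bases before it, leaving out bases that GENCODE M21 places in an exon of that gene. Capitals mark the GC box GGGCGG, the letters bound by Sp1-type factors, read on either strand.
Dnmt3a, chr12:3806730-3806979, plus strand: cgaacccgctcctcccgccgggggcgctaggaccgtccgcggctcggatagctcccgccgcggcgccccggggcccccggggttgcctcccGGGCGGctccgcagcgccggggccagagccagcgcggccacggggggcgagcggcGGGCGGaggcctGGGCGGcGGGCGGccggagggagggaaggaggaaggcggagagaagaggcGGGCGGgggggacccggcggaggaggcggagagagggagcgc
Dnmt3b, chr2:153649199-153649448, plus strand: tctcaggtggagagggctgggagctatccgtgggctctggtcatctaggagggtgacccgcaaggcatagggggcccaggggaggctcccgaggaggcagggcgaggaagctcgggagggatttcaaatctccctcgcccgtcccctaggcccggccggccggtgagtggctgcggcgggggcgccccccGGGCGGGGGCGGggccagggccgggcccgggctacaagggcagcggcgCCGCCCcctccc
Tet1, chr10:62887325-62887412, minus strand: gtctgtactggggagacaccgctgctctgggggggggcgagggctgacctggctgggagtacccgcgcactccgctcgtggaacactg
Idh1, chr1:65186501-65186729, minus strand: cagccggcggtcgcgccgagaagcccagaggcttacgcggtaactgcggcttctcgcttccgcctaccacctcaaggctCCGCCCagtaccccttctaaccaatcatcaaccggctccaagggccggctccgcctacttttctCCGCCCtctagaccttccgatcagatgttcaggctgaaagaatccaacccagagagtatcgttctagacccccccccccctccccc
The printed Dnmt3a run held 5 GC boxes and 38 CpG dinucleotides, that of Dnmt3b 3 and 21, and that of Idh1 2 and 17. The shorter Tet1 run held 0 and 6. GC boxes were found in the 250 bases before at least 1 annotated start of all 9 genes, in 13 of their 15 windows, against 32.7% of 32851 such windows over the genome's genes. The 15 windows are not all separate, since windows of Dnmt3a overlap and share a GC box. The 15 windows held from 2 (1 start of Dnmt1) to 51 (Tet2) CpG dinucleotides, against a median of 6 over all windows. Windows at other starts of Dnmt1 held 7 and 26. No match for base composition was made. The letters TGACGTCA of the cAMP response element, to which CREB binds, were in 0 of the 15 windows (1.55% of all windows), and the shorter TGACG in 0 as well (17.8%). The E2F letters TTTCCCGC (0.895% of all windows) and TTTGGCGC (0.417%) and the BCL6 letters TTCCTNGAA (1.31%) were also in 0 of 15. Each of these letters was sought on both strands. Other forms of the E2F letters were not sought, so an absence of E2F sites was not shown. TGACG lies within TGACGTCA, so those searches overlap.

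Depth, as reads recovered from the normalized values, ran from 53550726 to 132861266 per library. The germinal center genes Bcl6, S1pr2 and Fas were read in every library, with Bcl6 at 29307 or more. Fas, which encodes the sort marker CD95, had means of 6821 in WT, 5409 in Crebbp-KO and 5411 in Ep300-KO. No knockout library exceeded 6127, and no WT library was below 6275. Of 12 germinal center B cell markers, limma called 0 higher and 2 lower in Crebbp-KO (3.48% and 4.88% of all genes). In Ep300-KO it called 2 higher and 1 lower (5.84% and 6.09%), or 0 and 1 without p300-KO_18. The cause was not tested. Of 5 neutrophil markers, 4 were at 0 in all libraries, and the T cell receptor subunit gene Cd3e did not exceed 5.12. The macrophage and monocyte markers summed to between 3464 and 9370 in WT, where WT_46 was highest, 1967 to 2876 in Crebbp-KO and 2414 to 3204 in Ep300-KO. Their largest part was Mpeg1, with means of 3561 in WT, 1372 in Crebbp-KO and 1466 in Ep300-KO. Of 8 tested, limma called 4 lower and 0 higher in Crebbp-KO, against 4.88% and 3.48% of all genes. In Ep300-KO it called 1 lower and 0 higher, against 6.09% and 5.84%. Others went both ways there: Csf1r 416 in WT and 359 in Ep300-KO, Adgre1 57.4 and 64.6, and Cd68 805 and 834. p300-KO_18 held both Xist (98751) and Y-linked transcripts (sum of 4 genes, 9852), unlike the other 10 libraries. Results on Ep300-KO are therefore also given without it. Ep300 stood at 14466 ± 600.4 (SD, n = 3) in Ep300-KO and 21268 ± 1276 (n = 5) in WT, and limma's log2 difference was -0.55 (adjusted p = 0.00015). Crebbp had a mean of 8247 ± 612 normalized reads in Crebbp-KO against 8866 ± 743 in WT (log2 -0.10, limma adjusted p = 0.459). Reads were counted over whole genes, so this level does not check the deletion.

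Levels can be compared between genes only per length of exon, here as normalized reads per kb of all GENCODE M21 exons joined. In WT the order ran from Dnmt1 at 11880 ± 430.1 (SD, n = 5) and Uhrf1 at 10331 ± 743 through Idh2 (2352 ± 249), Tet3 (851 ± 40.1) and Idh1 (409 ± 34.2) to Dnmt3a (131 ± 16.6), Dnmt3b (87.7 ± 4.58), Tet2 (61.7 ± 11.3) and Tet1 (3.80 ± 0.515). Dnmt1 and Uhrf1 overlapped between libraries, with the lowest Dnmt1 library at 11294 per kb and the highest Uhrf1 library at 11364. The other neighbours in this order did not overlap: the lowest Dnmt3a library stood at 110.1 and the highest Dnmt3b library at 94.0, and the lowest Dnmt3b at 82.0 with the highest Tet2 at 76.7. The order also depends on the exon length used, such as 5.106 kb for Dnmt3b and 16.87 kb for Tet2. Other lengths were not tried. Of the summed level of the 3 DNMT genes per kb, Dnmt1 held 98.2% ± 0.134 in WT, Dnmt3a 1.08% ± 0.111 and Dnmt3b 0.725% ± 0.0314. Among the TET genes, Tet3 held 92.9% ± 0.970, Tet2 6.71% ± 0.975 and Tet1 0.417% ± 0.0729. The maintenance genes and Tet3 were thus the high members of their families, and the de novo enzymes and Tet1 the low ones.

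**Figure D1:**
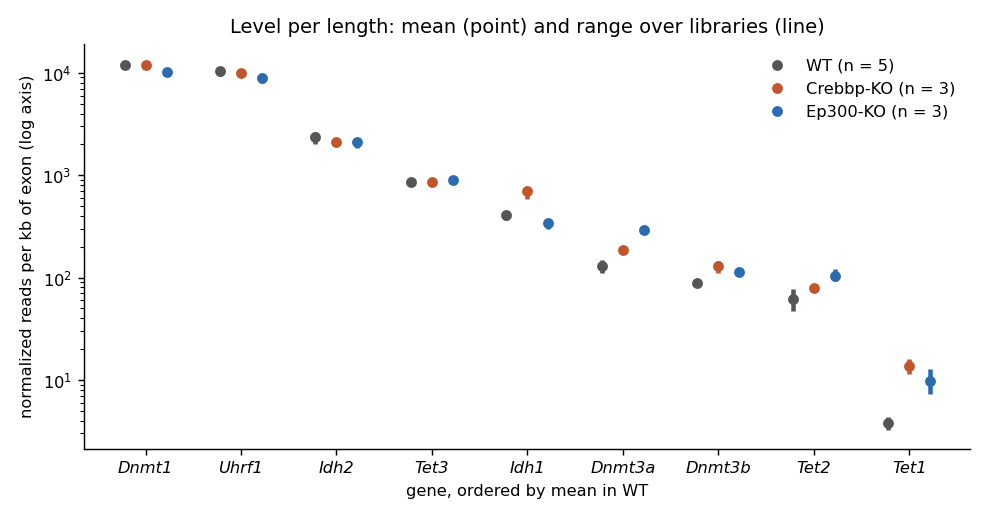
Mean level of each gene (point) and its range over libraries (line) in normalized reads per kb of exon, on a log axis, for 5 WT, 3 Crebbp-KO and 3 Ep300-KO libraries, ordered by the WT mean. Dnmt1 and Uhrf1 stand highest in all groups, and Tet1 rises from 3.80 in WT to 13.7 in Crebbp-KO and 9.71 in Ep300-KO.

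In Crebbp-KO, 4 of the 9 genes rose against WT, 0 fell and 5 did not pass (limma on log2(value + 1), Benjamini-Hochberg adjusted p below 0.05 over all genes tested). Over all 16515 genes 8.36% passed, 3.48% higher and 4.88% lower. The 4 were Tet1, Idh1, Dnmt3b and Dnmt3a, with fitted rises of 3.57-fold, 1.69-fold, 1.47-fold and 1.42-fold. In Ep300-KO, 4 rose and 1 fell, where 11.9% of genes passed, 5.84% higher and 6.09% lower. Without p300-KO_18 the genes that passed were 3, Dnmt3a, Tet1 and Tet2, and 3 genes also passed without WT_288 or without p300-KO_287. Dnmt3a rose 2.24-fold, Tet1 2.48-fold, Tet2 1.68-fold and Dnmt3b 1.30-fold, while Dnmt1 fell by 14.1%. The median log2 difference of the 9 genes was 0.37 in Crebbp-KO and 0.07 in Ep300-KO, against 0.01 and -0.01 for all genes tested. Both comparisons use the same 5 WT libraries and are not independent, and the 9 genes were chosen with earlier results of these data known. Compared directly, Crebbp-KO was higher than Ep300-KO for Idh1 and lower for Dnmt3a, and the other 7 genes did not pass, where 9.42% of all genes passed, 4.79% higher and 4.63% lower. In Crebbp-KO the same 4 genes stood above WT without overlap of libraries and 0 stood below, against 8.43% and 8.47% of all genes. In Ep300-KO 4 stood above and 1 below, against 9.63% and 9.4%. Between the knockouts 3 stood higher in Crebbp-KO and 2 lower, against 15.5% and 15.6%. In Crebbp-KO 0 of the 9 genes fell by limma, 0 at an unadjusted p below 0.05, and 0 by edgeR or DESeq2.

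**Figure D2:**
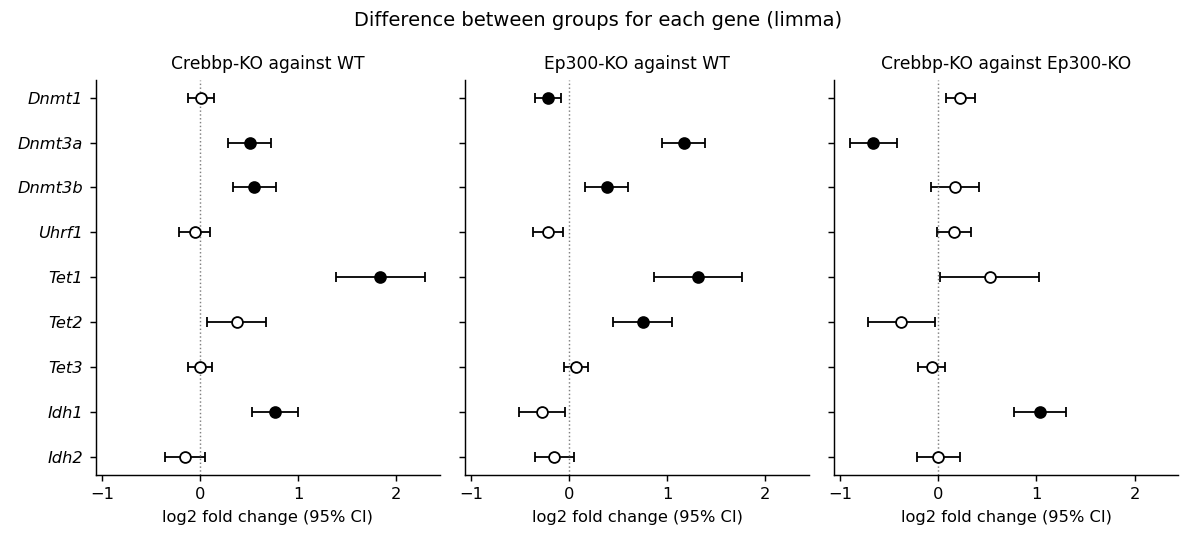
Log2 fold change of each gene by limma (point) with its 95% confidence interval (line) in the 3 comparisons; filled points passed at adjusted p below 0.05. Tet1, Dnmt3a and Dnmt3b are filled on the right of 0 in both comparisons with WT, Idh1 in Crebbp-KO only and Tet2 in Ep300-KO only, where of these genes the direct comparison passed for Dnmt3a and Idh1.

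The de novo methyltransferases are described first. Dnmt3a (chromosome 12, 3806007 to 3914443, mm10) encodes the main de novo enzyme of blood cells. Its normalized read counts were 1832, 1971, 2188, 2397 and 2485 in the WT libraries, 2935, 2954 and 3328 in Crebbp-KO, and 4472, 4778 and 5335 in Ep300-KO. The 3 groups did not overlap: every Crebbp-KO library lay above every WT library, and every Ep300-KO library above every Crebbp-KO library. The groups were without overlap for 16.9% of all tested genes in Crebbp-KO against WT, for 19% in Ep300-KO against WT and for 31% between the knockouts. The log2 fold change was 0.51 ± 0.10 (SE) in Crebbp-KO (limma adjusted p = 0.00859) and 1.17 ± 0.10 in Ep300-KO (adjusted p = 2.96e-05). Crebbp-KO was lower than Ep300-KO by a log2 of -0.66 (95% interval -0.90 to -0.42, adjusted p = 0.00336), so the rise was larger in Ep300-KO. Without CBP-KO_53 the Crebbp-KO rise missed the threshold (log2 0.45, adjusted p = 0.0548). The rise in Ep300-KO stood at log2 1.22 without p300-KO_18 and at 1.23 with sex, read from Xist and Y-linked transcripts, as a covariate and that library left out.

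Dnmt3b (chromosome 2, 153649450 to 153687730) encodes the other de novo enzyme. It was read at 419, 437, 443, 461 and 480 in WT, at 565, 676 and 742 in Crebbp-KO and at 571, 573 and 609 in Ep300-KO. Both knockouts lay above all WT libraries and overlapped with each other. The log2 fold change was 0.55 ± 0.10 in Crebbp-KO (limma adjusted p = 0.00527) and 0.38 ± 0.10 in Ep300-KO (adjusted p = 0.0266). Between the knockouts the log2 difference of 0.17 did not pass (95% interval -0.07 to 0.41, adjusted p = 0.384). The Crebbp-KO call held in all 23 alternatives, and the Ep300-KO call was lost in 8. Among these were the fits without WT_41 (adjusted p = 0.0537), WT_288 (0.0510), p300-KO_18 (0.0982), p300-KO_287 (0.0656) or p300-KO_289 (0.0703). Opposite-strand transcripts are annotated over part of Dnmt3a (Dnmt3aos), Dnmt3b (Dnmt3bos), Tet2 (Gm42567) and Tet3 (B230319C09Rik). The library kit keeps no strand, so reads of each pair cannot be told apart where they overlap.

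The maintenance genes moved little. Dnmt1 (chromosome 9, 20907209 to 20959888) was read at 83312, 85616, 88317, 89825 and 91136 in WT, at 84322, 86564 and 93249 in Crebbp-KO and at 69324, 75212 and 81662 in Ep300-KO. The Ep300-KO libraries all lay below the WT libraries, while the Crebbp-KO libraries overlapped with WT. The log2 difference in Ep300-KO was -0.22 ± 0.06 (limma adjusted p = 0.0345), and in Crebbp-KO 0.01 (95% interval -0.13 to 0.14, adjusted p = 0.974). The Ep300-KO call was lost in 13 of 23 alternatives, including edgeR (adjusted p = 0.0517), the fit without p300-KO_18 (0.0929) and that without p300-KO_287 (log2 -0.16, adjusted p = 0.145). It was also lost without WT_41 (0.0512), WT_4 (0.0641), WT_7 (0.0657), WT_288 (0.0680) or CBP-KO_53 (0.0525).

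Uhrf1 (chromosome 17, 56303321 to 56323486), whose product reads half-methylated DNA, ranged from 40057 to 48400 in WT, from 40574 to 44839 in Crebbp-KO and from 34154 to 40540 in Ep300-KO. WT and Ep300-KO overlapped through WT_41. The log2 differences of -0.06 in Crebbp-KO (limma adjusted p = 0.718) and -0.22 in Ep300-KO (adjusted p = 0.0669) did not pass. The Ep300-KO value passed without WT_41 (adjusted p = 0.0450) and with DESeq2 (0.0331).

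S phase genes were examined beside Dnmt1 and Uhrf1, since both are known to be transcribed most in replicating cells. Of 30 S phase genes, 12 fell and 0 rose in Ep300-KO by limma, where 6.09% of all genes fell, and 2 fell and 1 rose in Crebbp-KO. At an unadjusted p below 0.05, 21 were lower and 0 higher in Ep300-KO, and edgeR called 12 lower and DESeq2 18, with 0 higher. Without p300-KO_18, an alternative chosen after seeing the data, 9 of 30 fell in Ep300-KO. Their median log2 difference was -0.21 in Ep300-KO and 0.02 in Crebbp-KO. Pold1, a subunit of the lagging strand polymerase, had a log2 of -0.43 in Ep300-KO, the replication licensing factor Cdt1 -0.40 and the helicase subunit Gins1 -0.48. Of 20 genes of G2 and mitosis, 0 passed in Ep300-KO by limma (3 at an unadjusted p below 0.05, 0 by edgeR, 1 by DESeq2). In Crebbp-KO 1 rose and 0 fell by limma, where 3.48% of all genes rose and 4.88% fell. At an unadjusted p below 0.05, 6 were higher and 0 lower there, and edgeR called 1 higher and DESeq2 2, with 0 lower. The median log2 difference of the 20 was 0.14 in Crebbp-KO, against 0.01 for all genes tested. Set against the mean log2 level of the 30 S phase genes in its own library, Dnmt1 stood 2.58 to 2.67 above it in WT, 2.61 to 2.62 in Crebbp-KO and 2.59 to 2.68 in Ep300-KO, ranges that overlap. For Uhrf1 the ranges were 1.58 to 1.71, 1.55 to 1.57 and 1.63 to 1.66, and WT and Ep300-KO overlapped. Crebbp-KO lay below both, its highest library at 1.567 and the lowest WT library at 1.579. This offset was not computed for other genes, so its share over all genes is not known. By level, groups were without overlap for 16.9% of all genes in Crebbp-KO against WT and 31% between the knockouts. Over the 11 libraries Dnmt1 and Uhrf1 had a Pearson correlation of 0.92 on the log2 scale, and of 0.89 after group means were taken out. The points share libraries and size factors, so this is a description. The part of S phase transcripts in the Dnmt1 value was not tested. In sorted bulk cells, fewer cells in a phase and less RNA per cell cannot be told apart.

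**Figure D3:**
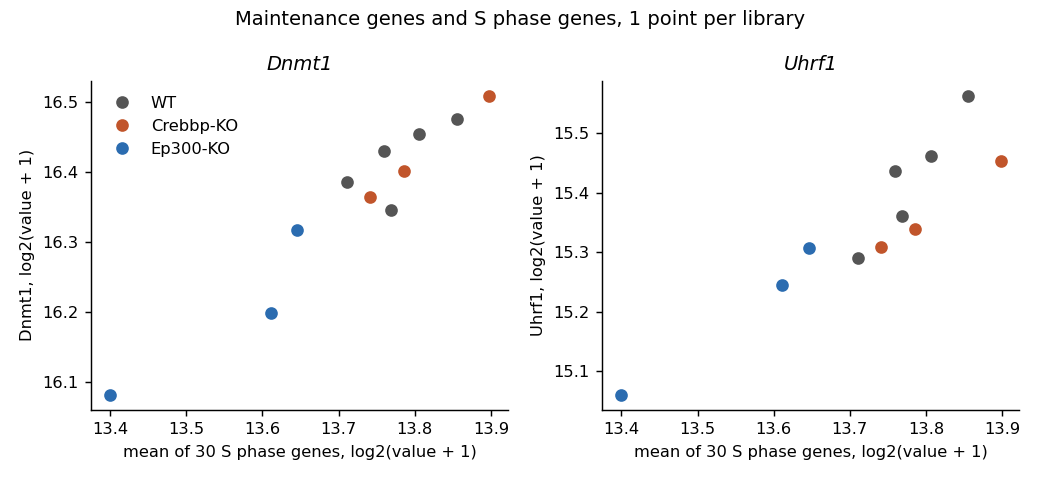
Level of Dnmt1 (left) and Uhrf1 (right) as log2(value + 1) against the mean log2(value + 1) of 30 S phase genes, with 1 point per library coloured by group. The 3 Ep300-KO libraries lie lowest on the x axis, at 13.4 to 13.6, against 13.7 to 13.9 in WT and Crebbp-KO.

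Of the erasers, Tet1 changed most. Tet1 (chromosome 10, 62804570 to 62908996), the TET gene best known from stem cells, was read at 49.7, 52.3, 57.8, 66.7 and 66.8 in WT. It reached 177, 214 and 246 in Crebbp-KO and 111, 143 and 197 in Ep300-KO. Both knockouts lay wholly above WT, and the lowest knockout library, p300-KO_289, rested on 87 reads. The log2 fold change was 1.84 ± 0.21 in Crebbp-KO (limma adjusted p = 0.000405) and 1.31 ± 0.21 in Ep300-KO (adjusted p = 0.00175). These calls held in all 23 alternatives, with log2 values from 1.69 to 1.96 and from 1.10 to 1.51. Without p300-KO_18 the Ep300-KO value was 1.33 (adjusted p = 0.00989). Between the knockouts the log2 difference was 0.52 (95% interval 0.02 to 1.03, adjusted p = 0.183) and the libraries overlapped. Even after this rise Tet1 held 1.45% ± 0.202 of the summed TET level per kb in Crebbp-KO and 0.962% ± 0.233 in Ep300-KO.

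Tet2 (chromosome 3, 133463679 to 133545139), a TET gene often mutated in human lymphoma, was read at 798, 953, 1004, 1152 and 1294 in WT. It stood at 1229, 1341 and 1429 in Crebbp-KO and at 1565, 1622 and 2029 in Ep300-KO. Ep300-KO lay above every other library, while Crebbp-KO overlapped with WT. The log2 fold change was 0.75 ± 0.14 in Ep300-KO (limma adjusted p = 0.00455) and 0.37 ± 0.14 in Crebbp-KO (adjusted p = 0.126). The Ep300-KO call held in all 23 alternatives and was 0.82 without p300-KO_18. The direct difference between the knockouts, -0.38 (95% interval -0.71 to -0.04), did not pass (adjusted p = 0.154), so a difference in response of Tet2 was not shown.

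Tet3 (chromosome 6, 83362373 to 83459084), the major TET transcript here, ranged from 13256 to 15018 in WT, from 13772 to 14889 in Crebbp-KO and from 13895 to 15761 in Ep300-KO. All groups overlapped. The log2 difference was 0.00 in Crebbp-KO (95% interval -0.12 to 0.12, limma adjusted p = 0.990) and 0.07 in Ep300-KO (-0.05 to 0.19, adjusted p = 0.492). Because Tet3 dominates, the summed TET level per kb was 916 ± 47.7 in WT, 944 ± 32.4 in Crebbp-KO and 1006 ± 71.4 in Ep300-KO. The share of Tet2 went from 6.71% in WT to 8.38% ± 0.854 in Crebbp-KO and 10.2% ± 0.839 in Ep300-KO.

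**Figure D4:**
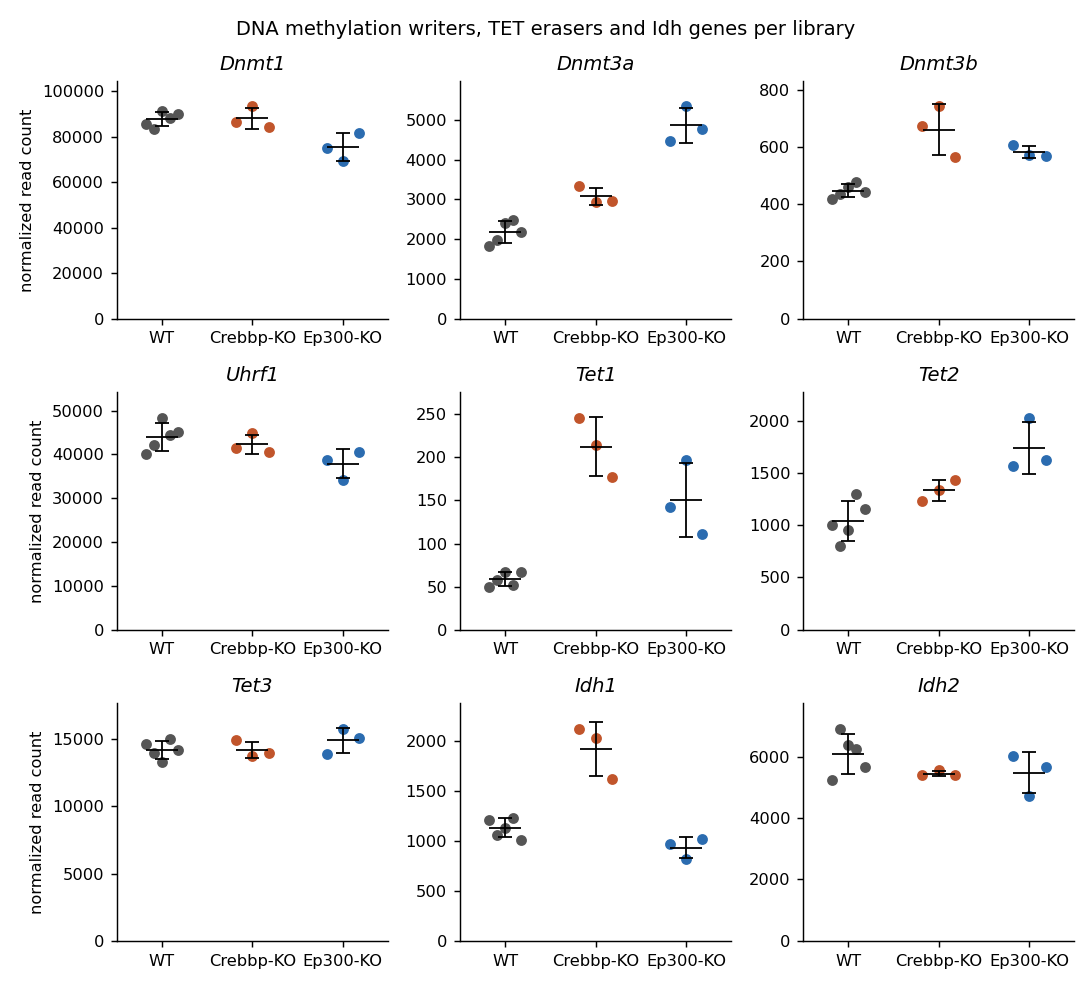
Normalized read count of each of the 9 genes in every library (points), with the mean (bar) and SD (whiskers) of 5 WT, 3 Crebbp-KO and 3 Ep300-KO libraries; each axis starts at 0. Dnmt3a steps up from WT (2175) to Crebbp-KO (3072) and Ep300-KO (4862), Idh1 is high in Crebbp-KO alone (1928), and Tet3 is level across groups.

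The isocitrate dehydrogenases differed from each other. Idh1 (chromosome 1, 65158616 to 65186500), the cytosolic enzyme, was read at 1017, 1066, 1132, 1217 and 1237 in WT, at 1622, 2034 and 2128 in Crebbp-KO and at 817, 969 and 1022 in Ep300-KO. Crebbp-KO lay above all other libraries, and Ep300-KO overlapped with the low end of WT. The log2 fold change was 0.76 ± 0.11 in Crebbp-KO (limma adjusted p = 0.00125) and -0.28 ± 0.11 in Ep300-KO (adjusted p = 0.121). Directly compared, Crebbp-KO was 2.05-fold higher than Ep300-KO (log2 1.04, 95% interval 0.78 to 1.30, adjusted p = 0.00029). Both calls held in all 23 alternatives. Exact two-sided permutation tests gave p = 0.0179 for Crebbp-KO against WT, the smallest that 5 against 3 libraries allow, and p = 0.1 between the knockouts, the smallest for 3 against 3.

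Idh2 (chromosome 7, 80094846 to 80115392), the mitochondrial enzyme, ranged from 5256 to 6908 in WT, from 5396 to 5557 in Crebbp-KO and from 4728 to 6025 in Ep300-KO. All groups overlapped, and the log2 differences of -0.15 in each knockout did not pass (limma adjusted p = 0.368 and 0.326). The share of Idh1 in the summed per-kb level of both genes was 14.9% ± 1.93 in WT, 24.8% ± 2.57 in Crebbp-KO and 13.8% ± 0.682 in Ep300-KO.

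The genes around this machinery were then counted by list. For comparison, 3.48% of all tested genes rose and 4.88% fell in Crebbp-KO, and 5.84% rose and 6.09% fell in Ep300-KO. Of 14 tested partners of maintenance and targeting, 0 passed limma in Crebbp-KO (median log2 -0.01; 1 at an unadjusted p below 0.05, 0 by edgeR or DESeq2) and 2 fell in Ep300-KO (median -0.07). Those were Usp7 (log2 -0.18), a deubiquitinase that stabilizes DNMT1, and Pcna (-0.28), the sliding clamp to which DNMT1 binds. The remodeler gene Hells, needed for methylation of repeats, stood at 22787 in WT, 25131 in Crebbp-KO and 20343 in Ep300-KO, differences that did not pass against WT (limma adjusted p = 0.318 and 0.233).

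Of 16 genes of base excision and demethylation, 2 fell in Crebbp-KO and 4 fell in Ep300-KO, where 4.88% and 6.09% of all genes fell. By limma 0 rose in either, with 1 and 2 higher at an unadjusted p below 0.05, 0 and 0 by edgeR, and 0 and 1 by DESeq2. Xrcc1, a scaffold of base excision repair, fell in both, from 26810 in WT to 19650 in Crebbp-KO (log2 -0.45) and 22235 in Ep300-KO (-0.27). Parp1, a sensor of strand breaks, fell in Crebbp-KO (-0.26). Gadd45b (-0.61), Ung (-0.34) and Mbd4 (-0.29), the latter pair being DNA glycosylases, fell in Ep300-KO. Tdg, the glycosylase that excises oxidized methylcytosine, stood at 4650 in WT, 4803 in Crebbp-KO and 4293 in Ep300-KO (limma adjusted p = 0.751 and 0.309).

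Among 9 methyl-CpG readers, Mbd2 went opposite ways. It stood between 38435 and 40029 in WT, between 45375 and 48194 in Crebbp-KO and between 29707 and 35087 in Ep300-KO, with no overlap between any groups. Its log2 was 0.27 in Crebbp-KO (limma adjusted p = 0.0103), -0.26 in Ep300-KO (0.00812) and 0.53 between them (0.000263). Zbtb38 fell in Crebbp-KO (-0.27, limma adjusted p = 0.0484), a call lost with edgeR and without p300-KO_18, and the other 7 readers passed in neither comparison with WT. Of 7 tested TET partners, 0 passed limma in Crebbp-KO (1 higher and 2 lower at an unadjusted p below 0.05, 0 by edgeR, 2 lower by DESeq2). Qser1, whose product keeps DNMT3 enzymes off bivalent promoters, fell in Ep300-KO (log2 -0.42), as did Ebf1 (-0.31), a B cell factor that can bring TET2 to DNA. Ogt, the glycosyltransferase that binds TET proteins, did not pass in Ep300-KO (log2 0.38, limma adjusted p = 0.0529).

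Of 21 genes of alpha-ketoglutarate and 2-hydroxyglutarate metabolism, 2 rose in Crebbp-KO, where 3.48% of all genes rose. In Ep300-KO 1 rose and 2 fell, shares near those of all genes (5.84% and 6.09%). Adhfe1, a transhydrogenase that makes 2-hydroxyglutarate, rose in both, from 1435 in WT to 1842 in Crebbp-KO (log2 0.37) and 2457 in Ep300-KO (0.78), and differed between them (-0.42, limma adjusted p = 0.0176). Sdhb (-0.26), a subunit of succinate dehydrogenase, and Psat1 (-0.24), which makes alpha-ketoglutarate during serine synthesis, fell in Ep300-KO. Of 16 tested genes of the S-adenosylmethionine cycle, which supplies the methyl donor, 0 passed limma in Crebbp-KO (1 higher and 4 lower at an unadjusted p below 0.05, 0 by edgeR, 3 lower by DESeq2). In Ep300-KO Mat2a, which makes S-adenosylmethionine, fell (-0.17) and Mtr, methionine synthase, rose (0.21).

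**Figure D5:**
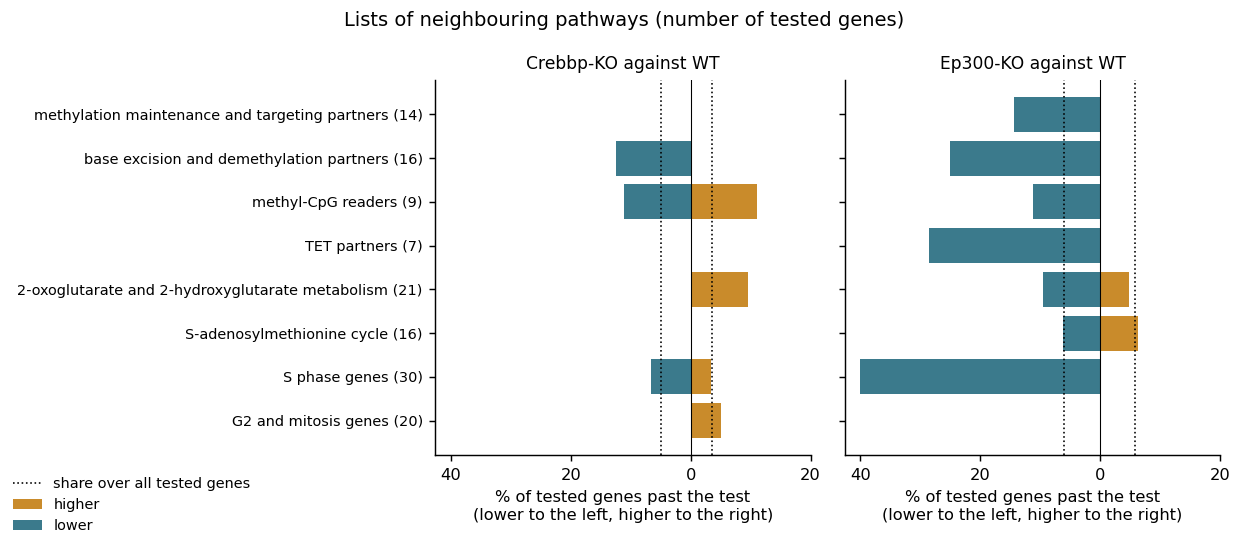
Share of tested genes in each pathway list, cell type markers not drawn (number tested in brackets) that passed limma lower (left of 0) or higher (right of 0) in Crebbp-KO and Ep300-KO against WT; dotted lines mark the share over all 16515 genes. S phase genes lower in Ep300-KO, 12 of 30, form the longest bar among the pathway lists drawn.

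Without p300-KO_18, 1255 of all 16515 genes passed in Ep300-KO against 1970 with it. The lists then held these called genes: 0 of the maintenance partners, 3 lower in base excision, 1 lower each among readers and TET partners, 1 higher and 1 lower in alpha-ketoglutarate metabolism, and 0 in the S-adenosylmethionine cycle (limma).

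Markers listed for other cell types also moved in the same libraries. Whether these transcripts came from other cells or from the sorted B cells was not tested. T cell markers summed to between 9060 and 11255 in WT, 5021 and 6062 in Crebbp-KO and 5040 and 6159 in Ep300-KO, mostly Lck, which B cells can also express. The list went both ways: Lck was lower in both knockouts (log2 -0.93 and -0.89), while Thy1 was higher in Ep300-KO (44.2 in WT, 282 in Ep300-KO, log2 2.73, limma adjusted p = 0.00567). In Crebbp-KO Thy1 stood at 154 and did not pass (adjusted p = 0.0696). The dendritic cell markers summed to between 4315 and 5728 in WT, 2964 and 3485 in Crebbp-KO and 2635 and 2786 in Ep300-KO. These sums were mostly Flt3, with means of 4651 in WT, 3067 in Crebbp-KO and 2552 in Ep300-KO. The low markers went both ways, in the same order of groups: Itgax 77.5, 12.6 and 33.9, Zbtb46 47.6, 27.5 and 74.1, and Xcr1 29.3, 37.1 and 21.7. The erythroid markers summed to 533 or less in every library. Of 5 tested plasma cell markers 3 rose and 0 fell in Ep300-KO, where 5.84% and 6.09% of all genes did. The 3 were Sdc1, Xbp1 and Jchain (2 of 5 without p300-KO_18). In Crebbp-KO 0 rose and 1 fell, against 3.48% and 4.88%. At an unadjusted p below 0.05, 1 was higher and 2 lower there, and DESeq2 called 1 higher and 1 lower. The list went both ways: Irf4 had a mean of 3865 in WT and 2332 in Crebbp-KO, while Sdc1 had 115 and 186. Prdm1 stood at 541 and 296, and Xbp1 at 12082 and 12286. Crebbp-KO was lower than Ep300-KO for 3 of the 5, against 4.63% of all genes. The summed level of the 6 listed was 68255 to 81273 in Ep300-KO, 52903 to 62833 in WT and 54524 to 64631 in Crebbp-KO. Those sums were mostly Jchain, with a mean of 42253 in WT. The part of these transcripts in the Dnmt3a, Dnmt3b, Tet1, Tet2 and Idh1 values was not tested.

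For each of the 6 genes that passed against WT, the tested genes with the most similar log2 pattern over the 11 libraries were sought. They were found by Pearson correlation, as a description. Predicted genes, clone-named genes and pseudogenes, recognized by name, were left out of the search. Dnmt1 was nearest to the kinetochore gene Kntc1 (r = 0.97) and the replicative helicase gene Mcm7 (0.97). Dnmt3a was nearest to Tmem176b (0.98) and Tbc1d9b (0.97), Dnmt3b to Slc25a30 (0.97) and Tet1 to Ocrl (0.97). Tet2 was nearest to Lyrm9 (0.97) and Idh1 to Ppp2r5a (0.97). Among the 9 genes themselves, Dnmt3b and Tet1 correlated at 0.92 and Dnmt3a and Tet2 at 0.89. After group means were taken out these fell to 0.31 and 0.51. All of these points share libraries, depth and group differences.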

How the data were processed

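TruSeq RNA v2 libraries were made from total RNA: 5 WT, 3 Crebbp-KO and 3 Ep300-KO, grouped by title. The submitters' processing notes name CASAVA 1.8, HISAT2, featureCounts, DESeq2 and mm10; settings and annotation are not given in the sources used here. The authors deposited a signal per gene, DESeq2-normalized counts per the labels: whole reads scaled by a size factor of the library. In every library 100% of values were whole multiples of 1 step (relative tolerance 1e-06), so whole reads were recovered; they sum to between 53550726 and 132861266. Precision for low genes such as Tet1 is set by these reads. All 11 columns were used.

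Limma 3.58.1 (R 4.3.3) with a mean-dependent variance trend was run on log2(value + 1) for 16515 genes with a mean of at least 10, with 1 mean per group, no covariate, two-sided, and Benjamini-Hochberg adjustment over all genes. This scale understates the change of low genes. The labels do not say that each library is 1 mouse, so p-values measure the spread between samples, which may be partly technical. Reads for the count tests, edgeR 4.0.16 and DESeq2 1.42.0, were the recovered ones. At adjusted p below 0.05 edgeR called 1323 genes in Crebbp-KO and 1961 in Ep300-KO against WT. Alternatives changed pseudocount, filter, scaling, test, libraries, weights and a sex covariate.

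Named genes were all 9 members, up to 6 called genes per list and comparison, and the targeted genes. Up to 3 genes most correlated with each called member were added, leaving out predicted genes, clone-named genes and pseudogenes. Examples that did not pass (Hells, Tdg, Ogt) were chosen after their values were seen. Some genes that the rule names are not reported here. The members and lists were chosen with earlier results of these data known. Positions and exon lengths are from GENCODE M21 (GRCm38, the same assembly as mm10), which may differ from the authors' annotation. Promoter windows are from RefSeq (GRCm38.p6), and all 9 symbols matched. The procedure was tested on simulated data. Python 3.11.15, pandas 2.3.3 and matplotlib 3.10.9 were used.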

Additional observations from a re-analysis of the deposited data

Results flagged for a closer look

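The effects of the knockouts on Dnmt3a differed by a direct test: Crebbp-KO stood below Ep300-KO by a log2 of -0.66 (limma adjusted p = 0.00336), with all 3 libraries of each group apart. The effects on Idh1 differed as well, with Crebbp-KO above Ep300-KO by a log2 of 1.04 (limma adjusted p = 0.00029), all 3 libraries apart. In the WT group of 5, no library of any of the 9 genes lay far from the other 4 by Dixon's criterion of 0.71.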

How the results depend on the processing

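Each of 27 values (9 genes, 3 comparisons) was recomputed under 23 alternatives. Of 621 results, 577 kept direction and side of the threshold, 22 lost the call, 7 gained it and 15 changed sign. The signs changed only for values near 0. Dnmt1 in Crebbp-KO against WT was -0.0062 with library weights and -0.012 without WT_46 and p300-KO_18, and from -0.036 to 0.0366 with 1 library left out. Tet3 in Crebbp-KO was -0.0036 without WT_46 and p300-KO_18, and from -0.0317 to 0.0246 with 1 library left out. Idh2 between the knockouts was -0.0278 with quantile normalization, -0.0069 with edgeR, -0.0076 with DESeq2 and -0.0559 with weights, and from -0.1011 to 0.0737 with 1 library left out. The cause was not tested.

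Of the 9 genes, 3 passed in Ep300-KO with quantile normalization, 3 without WT_46 and p300-KO_18 and 3 with the sex covariate, against 5 in the main comparison, and 3 to 5 with 1 library left out. The Dnmt3b and Dnmt1 calls were those lost. In Crebbp-KO 3 to 4 passed with 1 library left out. Between the knockouts 2 to 3 did, and 4 with weights, against 2.

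Over all genes, 2730 passed in Crebbp-KO with weights against 1380, and 642 to 1541 with 1 library left out (655 without CBP-KO_53, 642 without CBP-KO_55). In Ep300-KO 1169 to 2027 passed with 1 left out, against 1970 (1255 without p300-KO_18, 1248 without p300-KO_287, 1169 without p300-KO_289). Between the knockouts 2349 passed with DESeq2, 2808 with weights and 913 with the sex covariate, against 1556, and 745 to 1954 with 1 left out (849 without p300-KO_18, 906 without p300-KO_287, 862 without CBP-KO_53, 745 without CBP-KO_55). Fewer libraries in a fit lower its power. No paired analysis was possible because no replicate number occurs in more than 1 group. Tet1, at 36 to 250 reads per library, is the member most limited by depth.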
